A study of Mus musculus with 8 samples.

Results

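Solute carriers are membrane proteins that move amino acids, sugars, ions, nucleotides and other small molecules across the plasma membrane or the membranes of organelles. They are numbered by family. Slc2 proteins let glucose pass down its gradient, Slc7 and Slc38 proteins carry amino acids, Slc20 proteins import phosphate together with sodium, Slc30 and Slc39 proteins move zinc out of and into the cytosol, and Slc25 proteins exchange metabolites across the inner mitochondrial membrane. Pluripotent cells take up glucose and amino acids through such carriers to sustain rapid growth.

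The genes described here were those whose symbol starts with Slc followed by a number or the letter o, 38 of the 3160 genes in the deposited table. RefSeq names 389 protein-coding mouse genes by this pattern, and carriers with low input counts or with ratios that varied between replicates had been removed from the table by its authors. By family number, 8 of the 38 were amino acid carriers, 3 sugar carriers, 8 ion carriers, 7 mitochondrial carriers and 4 carriers of the Slc35 nucleotide sugar family. A further 7 carried other substrates. Slc4a1ap, kanadaptin, is named for an anion exchanger that it binds and is not a carrier.

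The cells were of E14Tg2A, an embryonic stem (ES) cell line of the mouse, taken at day 0, grown on gelatin in medium with serum and LIF, or after 2 days as epiblast-like aggregates (ELA), which formed as floating aggregates in a chemically defined medium without serum or LIF and with less non-essential amino acids. Cells of both stages were treated with cycloheximide to stall ribosomes before lysis. In each stage, RNA was sequenced both from the whole clarified lysate (input) and from what an antibody to Rpl10a, a protein of the large ribosomal subunit, brought down (Rpl10a-IP), in 2 libraries each, 8 in all. Whether the 2 libraries of a group came from separate cultures is not stated beyond their being duplicates, so p-values measure the spread between these libraries, which may be technical.

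The Rpl10a-IP libraries held 16076207 to 23483388 reads over the 3160 genes, the ES input libraries 3898414 and 5380139, and the ELA input libraries only 159587 and 410192. Solute carrier genes took 0.871% and 0.899% of the reads in ES input and 0.821% and 0.820% in ELA input, with 95% Wilson intervals of 0.778 to 0.866% and 0.793 to 0.848% in the last pair. Their median was 15.5 reads in ELA input replicate 1 and 40.5 in ELA input replicate 2, and 7 of the 38 had fewer than 10 reads in the first. The 2 ELA input libraries differed by no more than sampling noise over all genes (chi-square over its degrees of freedom 0.957). Over the 38 solute carrier genes they differed by less than that (0.238). Over all genes the value was 6.04 between the ES inputs, 16.3 between the ES Rpl10a-IP libraries and 27.2 between those of ELA. The table holds only genes whose ratios repeated between replicates, which lowers these values, and the 2 ELA input libraries were kept as 2 replicates. The methods of the study left out ELA input replicate 1 because it had many duplicate reads, mapped and read less well and correlated poorly with the rest, so the counts of calls that rest on it are also given without it. Of the markers of the naive state, all 6 in the table fell in ELA total RNA (median log2 difference −2.89), while Dnmt3b, of the primed epiblast, rose by 2.62. Of markers of other cell types in the table, neural Nes rose by 2.51 and both primitive endoderm markers, Lama1 and Lamb1, fell (median −0.70), and of 3 general pluripotency markers 1 rose and 1 fell. Their part in the results was not tested.

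Normalised counts below are reads put on one scale over the 8 libraries. Differences are given on the log2(normalised count + 1) scale, fitted with limma over all 3160 genes, and a gene was called where the p-value, adjusted by Benjamini-Hochberg over them, was under 0.05. All of these are relative to the other genes in the table. In bulk libraries, fewer cells of a type and less RNA per cell cannot be told apart.

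Per kilobase of transcript, the most abundant carrier in ES total RNA was Slc25a5, which exchanges ADP and ATP across the inner mitochondrial membrane, at a normalised count of 2662 per kb. Slc2a3, the high-affinity glucose transporter GLUT3, followed at 1769 per kb, and Slc20a1 at 996, Slc2a1 (GLUT1) at 991 and the neutral amino acid carrier Slc38a2 at 838. In ELA total RNA the order at the top differed. Slc2a1 came first at 2432 per kb, ahead of Slc25a5 at 1043, Slc2a3 at 784 and Slc38a2 at 735. Slc22a23, an orphan member of the organic ion family, was the lowest of the 38 in ES at 10.0 per kb.

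**Figure D1:**
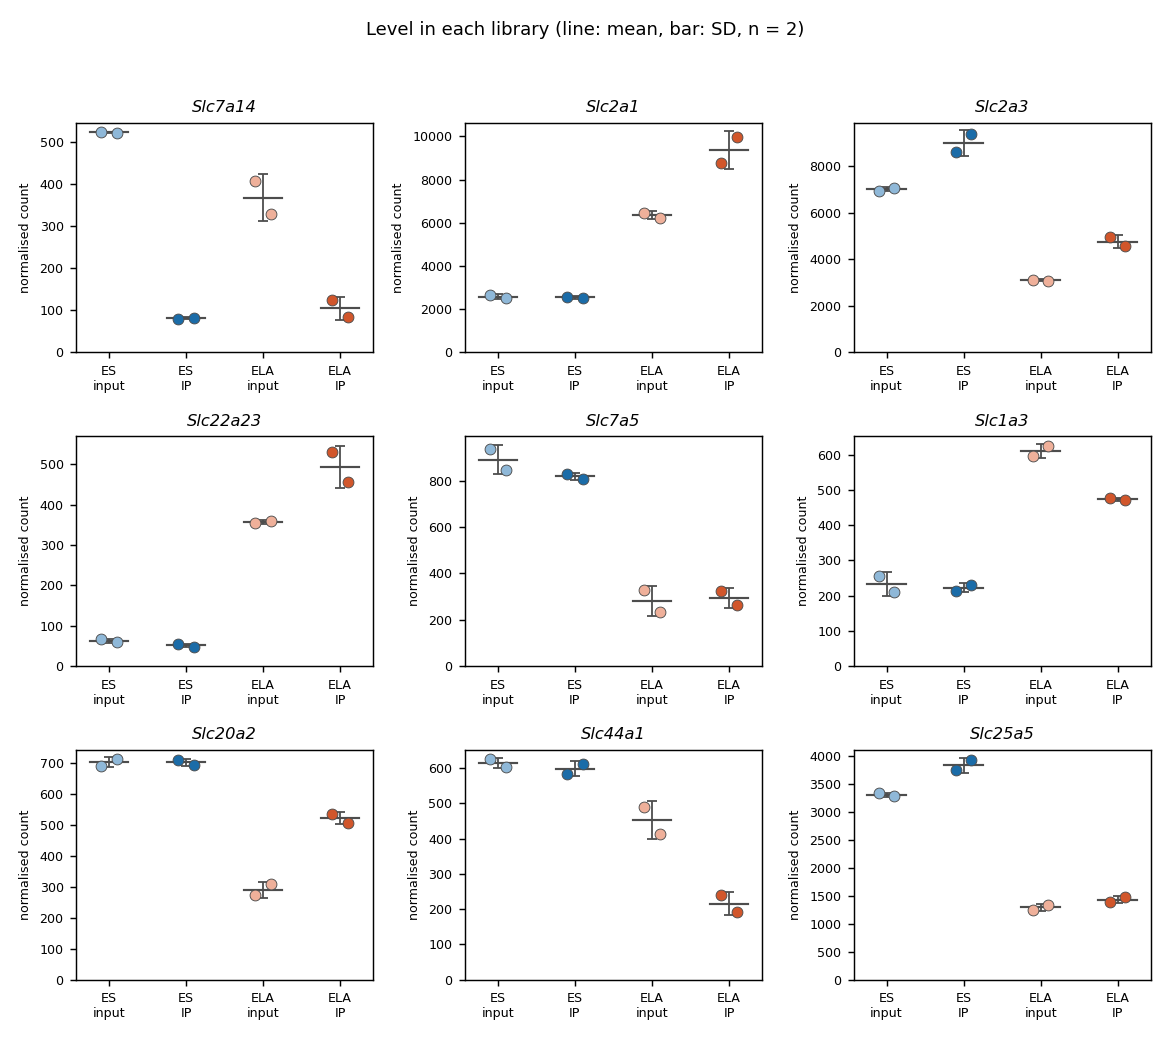
Normalised count (vertical axis, from 0) of 9 solute carrier genes in each of the 8 libraries, by group along the horizontal axis. Points are libraries, lines are group means and bars are SDs (n = 2). Slc7a14 is low in all 4 Rpl10a-IP libraries and Slc2a1 is high in all 4 ELA libraries.

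The first comparison asks which carrier mRNAs the ribosomes of ES cells hold more or less of than their share of total RNA. Most differed little: the median log2 ratio of Rpl10a-IP over input was −0.08 over the 38 genes and −0.02 over all genes. Only 1 carrier, Slc7a14, differed by more than 2-fold (2.63% of the 38, against 0.22% of all genes). Limma called 9 carriers as enriched on ribosomes and 5 as depleted, 14 of 38, where it called 39.5% of all genes, 19.5% higher and 20% lower. Libraries scaled by total reads gave 6 higher and 7 lower. The count was 8 with all 8 libraries, 7 without either ES Rpl10a-IP library and 9 without ES input replicate 1.

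The enriched carriers in ES were led by ion carriers. Slc12a2, the sodium, potassium and chloride cotransporter NKCC1, had normalised counts of 989 and 1083 in ES input and 1599 and 1541 in ES Rpl10a-IP. The ratio of 0.60 (SE 0.09, adjusted p 3.9e-09) lay above 99.1% of all genes. Slc39a10, a zinc importer, was enriched by 0.44 (SE 0.09), Slc25a13, the mitochondrial aspartate and glutamate exchanger, by 0.40 (SE 0.09), and Slc2a3 by 0.36 (SE 0.09). These 4 and Slc7a14 were the calls that held when any 1 library was left out. The remaining rises, of Slc16a1 (the lactate and pyruvate carrier MCT1, 0.34), Slc25a46 (0.28), Slc4a7 (a sodium bicarbonate carrier, 0.23), Slc38a2 (0.22) and Slc25a5 (0.21), were each lost without 1 or more of the 4 ES libraries. The same was true of the falls of Slc25a44 (−0.49), Slc25a39 (−0.48), Slc39a1 (−0.35) and Slc27a2 (−0.23).

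By class, 1 amino acid carrier rose and 1 fell of 8 (median −0.10), 1 sugar carrier rose of 3 (median −0.02), 3 ion carriers rose and 1 fell of 8 (median 0.04), and 3 mitochondrial carriers rose and 2 fell of 7 (median 0.01). The sugar, ion and mitochondrial medians have no settled sign. Leaving out 1 library moved the first from −0.072 to 0.029 and the second from −0.0065 to 0.085, and both crossed 0 without ES input replicate 1 or ES Rpl10a-IP replicate 2. The third ran from −0.013, without ES Rpl10a-IP replicate 2, to 0.037. The sugar median was 0.14 once trends with transcript length and GC content were removed within each library (the length and GC correction), and the mitochondrial one 0.21 among genes with at least 10 reads in both ELA input libraries.

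Slc7a14 stood apart from every other carrier. It belongs to the family of cationic amino acid transporters and is found on intracellular membranes. The gene lies on chromosome 3 from 31202854 to 31310567 (GRCm38.p6), and 2 other RefSeq genes, Gm15496 and Gm33834, overlap it, so its reads could in part be theirs where strand was not used in counting. The same limit holds for the 16 of the 38 genes that overlap another RefSeq gene, Slc2a1, Slc2a3 and Slc20a2 among them. The normalised count of Slc7a14 was 524 and 523 in ES input and 78.9 and 82.4 in ES Rpl10a-IP. In ELA it was 408 and 329 in input and 124 and 85.2 in Rpl10a-IP. The input and Rpl10a-IP libraries did not overlap in either stage, with every Rpl10a-IP library under every input library. The log2 ratio of Rpl10a-IP over input was −2.68 (SE 0.13, adjusted p 8.4e-87) in ES, the lowest of all 3160 genes, and −1.82 (SE 0.16, adjusted p 2.3e-12) in ELA, at percentile 1.84 among them. Without ELA input replicate 1 the ELA ratio was −1.66. With all 8 libraries the ES ratio was unchanged, at an adjusted p by limma of 3.2e-15.

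Between the stages, total RNA of Slc7a14 fell by 0.52 on the log2 scale (SE 0.16, adjusted p 0.0043), while its ribosome-bound RNA was called 0.35 higher (SE 0.13, adjusted p 0.011). The fall was −1.15 with the length and GC correction, −0.67 without ELA input replicate 1 and −0.36 (adjusted p 0.035) without ELA input replicate 2. The ribosome-bound value is not stable. It was 0.08 (adjusted p 0.63) without ELA Rpl10a-IP replicate 1, 0.32 (adjusted p 0.083) without ES Rpl10a-IP replicate 1, and turned to −0.67 with the length and GC correction. The ratio of Rpl10a-IP to input rose by 0.86 from ES to ELA (SE 0.22, adjusted p 0.0014). That rise kept its call when any 1 library was left out, at values between 0.59 and 1.14, and was 0.48 (adjusted p 0.071) with the length and GC correction alone. Its transcript, at 8845 bases, was the second longest of the 38, with a 3′ UTR of 6166 bases.

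**Figure D2:**
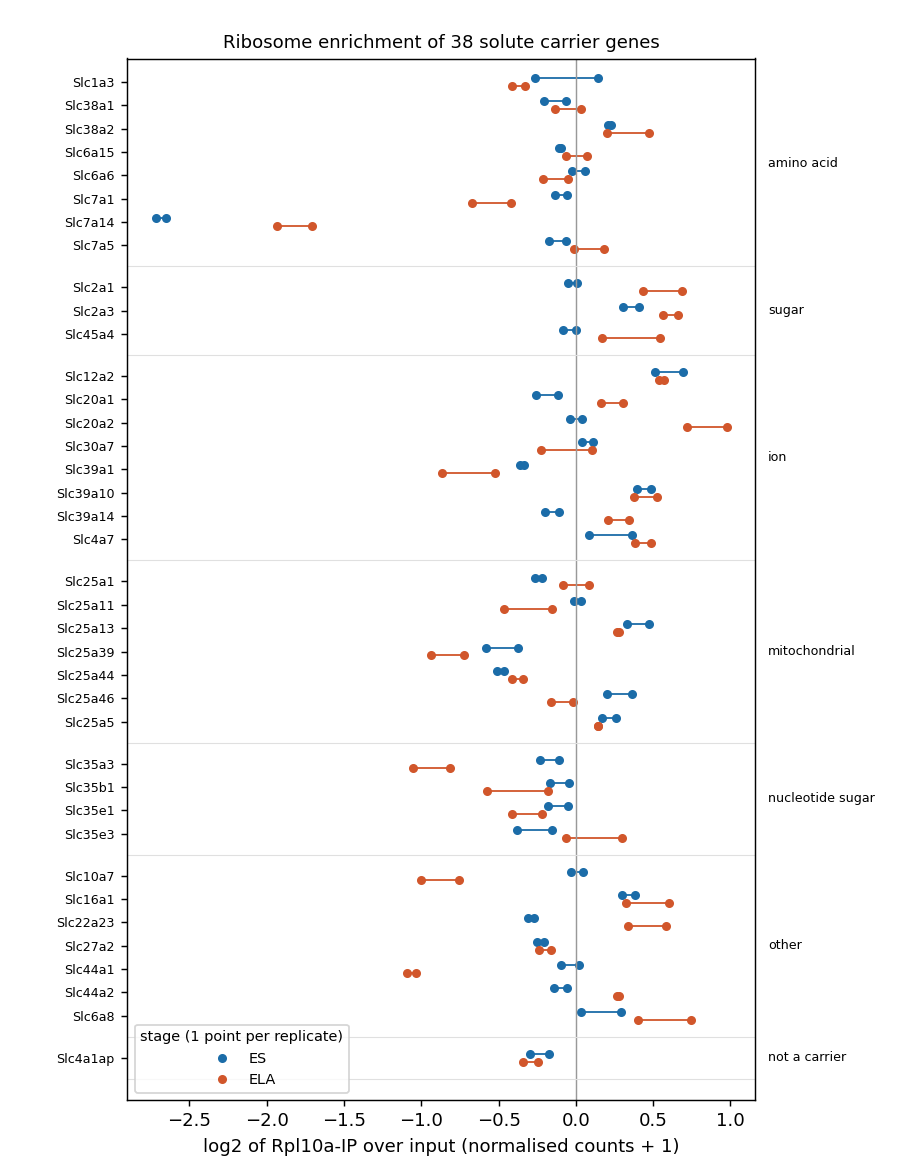
Log2 ratio of Rpl10a-IP over input (horizontal axis) for each solute carrier gene (vertical axis, by class), in ES (blue) and ELA (orange). Each point pairs the 2 libraries of 1 replicate number, and lines join the 2 points of a stage. Slc7a14 lies far to the left of the other genes in both stages.

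In ELA limma called 15 as enriched and 13 as depleted on ribosomes, 28 of 38, where it called 74% of all genes, 36.8% higher and 37.2% lower. Libraries scaled by total reads gave 9 higher and 15 lower. The count was 18 without ELA Rpl10a-IP replicate 1. Without ELA input replicate 1 it was 29, 16 higher and 13 lower, the added call being Slc7a5 (0.33). The median absolute log2 ratio was 0.36 over the carriers and 0.54 over all genes, against 0.18 and 0.19 in ES, and 2 carriers (5.26%) against 21.3% of all genes differed by more than 2-fold.

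All 3 sugar carriers were enriched on ribosomes in ELA. Slc2a1 had normalised counts of 6471 and 6212 in input and 8750.5 and 9994 in Rpl10a-IP, a ratio of 0.56 (SE 0.10, adjusted p 9.8e-06). Slc2a3 had 3127 and 3085 in input and 4946 and 4553 in Rpl10a-IP, a ratio of 0.61 (SE 0.10, adjusted p 1.6e-06). In both genes each Rpl10a-IP library exceeded each input library. Slc45a4 was enriched by 0.36, a call that was lost without ELA Rpl10a-IP replicate 1 and turned to −0.055 with the length and GC correction.

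Of the ion carriers, 6 of 8 were enriched and 1 depleted (median 0.35). Slc20a2, a sodium-coupled phosphate importer, rose most, with a ratio of 0.85 (SE 0.12, adjusted p 1.1e-07), followed by Slc12a2 (0.55), Slc39a10 (0.45), Slc4a7 (0.43), Slc39a14 (0.28) and Slc20a1 (0.23). The calls of Slc39a14 and Slc20a1 were lost without ELA Rpl10a-IP replicate 1, among other libraries. Slc39a1 was depleted (−0.69, SE 0.13). With the length and GC correction Slc12a2, Slc4a7, Slc39a10 and Slc39a14 lost their calls, and 2 of 8 were enriched and 2 depleted (median 0.15). Under scaling by total reads 4 were enriched and 1 depleted.

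Of 8 amino acid carriers, 1 was enriched and 3 were depleted (median −0.092). The median was −0.20 under scaling by total reads, with 0 enriched and 4 depleted, and −0.49 with the length and GC correction, with 1 enriched and 5 depleted. Leaving out 1 library moved it to at most −0.15, without ELA input replicate 2. Beside Slc7a14, Slc7a1, which imports arginine and lysine, was depleted (−0.54, SE 0.13, adjusted p 0.00040), and Slc1a3, a glutamate transporter of the plasma membrane, at −0.37, a call that was lost without ELA Rpl10a-IP replicate 2. Slc38a2 was enriched by 0.34, lost without ELA Rpl10a-IP replicate 1. The mitochondrial carriers had 1 enriched (Slc25a13, 0.27) and 3 depleted (Slc25a39, −0.83; Slc25a44, −0.38; Slc25a11, −0.31) of 7 (median −0.089). The length and GC correction left 3 enriched and 1 depleted (median 0.082), with Slc25a11 at 0.082, and under scaling by total reads 0 were enriched and 3 depleted. Only the call of Slc25a39, which imports glutathione into mitochondria, held without each library, and it was lost with the length and GC correction.

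The largest depletions after Slc7a14 were of carriers of other kinds. Slc44a1, a choline transporter, had normalised counts of 489 and 413 in ELA input and 239 and 193 in ELA Rpl10a-IP, a ratio of −1.06 (SE 0.13, adjusted p 5.4e-09). In ES the same gene had 624 and 604 in input and 583 and 612 in Rpl10a-IP, values that overlap. Slc35a3, which carries UDP-N-acetylglucosamine into the Golgi, had a ratio of −0.93 (SE 0.13) and Slc10a7 of −0.88 (SE 0.14). Slc35b1 (−0.38), Slc35e1 (−0.32) and Slc4a1ap (−0.29) were depleted too, and each of these calls was lost without 1 or more libraries. Slc6a8, the creatine transporter (0.57), Slc16a1 (0.46), Slc22a23 (0.46) and Slc44a2 (0.27) were enriched, and of these only the call of Slc16a1 held without each library. Slc6a8 rests on 4 and 10 reads in ELA input.

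Total RNA of the carriers changed in both directions from ES to ELA. Limma called 10 higher and 17 lower in ELA input than in ES input, 27 of 38, where it called 70.2% of all genes, 34.5% higher and 35.8% lower. The median log2 difference was −0.19 over the carriers and −0.02 over all genes. Of the 27, 23 held when any 1 library was left out. A gene entered the table if its mean input on the deposited scale reached 50 in at least 1 stage, and 7 carriers did so in 1 stage alone. Slc22a23 and Slc30a7 reached it in ELA only, and Slc6a8, Slc6a15, Slc7a1, Slc25a39 and Slc35e3 in ES only. A difference in the direction of that stage was favoured by their entry, so their values are descriptions. Of the other 31, 8 were called higher and 13 lower.

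Slc22a23, which is in the table through its ELA level alone, had the largest difference. Its normalised count was 66.4 and 58.7 in ES input and 353 and 360.4 in ELA input, a difference of 2.50 (SE 0.15), or 5.64-fold. Slc1a3 had 256 and 209.6 in ES input and 598 and 625 in ELA input, a rise of 1.40 (SE 0.13, adjusted p 1.5e-11). The 2 glucose transporters moved in opposite directions. Slc2a1 rose by 1.30 (SE 0.10, adjusted p 2.4e-13), from 2675 and 2493 to 6471 and 6212, and Slc2a3 fell by 1.17 on the log2 scale (SE 0.10, adjusted p 1.5e-12), from 6940.4 and 7064 to 3127 and 3085. In each gene the ES and ELA libraries did not overlap.

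Slc7a5, the light chain LAT1 of an exchanger for large neutral amino acids, had normalised counts of 935 and 845 in ES input and 326 and 233 in ELA input. It fell by 1.69 on the log2 scale (SE 0.14, adjusted p 4.9e-13). Among those that reached the input minimum in ES only, Slc7a1 fell by 1.31 and Slc6a15, which carries branched-chain amino acids and proline, fell by 1.16. Both rest on few reads in ELA input, 7 and 21 for Slc7a1 and 6 and 16 for Slc6a15. The taurine transporter Slc6a6 rose by 0.55. Slc38a1 and Slc38a2, sodium-coupled carriers of neutral amino acids, were not called, at −0.11 and −0.19. In all, 4 amino acid carriers fell and 2 rose of 8 (median −0.35). After the length and GC correction 6 fell and 2 rose (median −0.85), and among those with at least 10 reads in both ELA input libraries 2 fell and 2 rose (median −0.15). Of the 6 that reached the input minimum in both stages, 2 rose and 2 fell.

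Of the ion carriers, both phosphate importers fell. Slc20a1 had 3295 and 3311 in ES input and 1115 and 1113 in ELA input, a difference of −1.57 (SE 0.11, adjusted p 4.4e-15), and Slc20a2 fell by 1.28. In all, 3 of 8 ion carriers rose and 2 fell (median 0.15), or 2 and 2 of 7 without Slc30a7 (median 0.096). Slc30a7, which moves zinc into the Golgi, rose by 0.94, Slc4a7 by 0.75 and Slc39a10 by 0.53. The rises of Slc30a7 and Slc4a7 lost their calls with the length and GC correction. The mitochondrial carriers had 1 higher and 5 lower of 7 (median −0.33). Slc25a5 had 3327 and 3275 in ES input and 1251 and 1336 in ELA input and fell by 1.35 (SE 0.10, adjusted p 1.4e-13). A pseudogene is named for it, as for Slc39a1, and reads could have been shared between the copies. The citrate carrier Slc25a1 fell by 0.60, and Slc25a46, an outer membrane protein of the family, rose by 0.57. The falls of Slc25a39 (−0.46), Slc25a44 (−0.33) and Slc25a13 (−0.29) were each lost without ELA input replicate 2, among other libraries.

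Among the carriers of other kinds, Slc6a8, which reached the input minimum in ES only, fell by 1.75. Slc35a3 rose by 0.70, a call lost with the length and GC correction, and Slc27a2, which takes up fatty acids and activates them, by 0.53. Falls of 0.50 in Slc4a1ap, 0.45 in Slc44a1 and 0.42 in Slc35e1 held without each library, that of Slc4a1ap not under the length and GC correction. The fall of 0.33 in Slc16a1 did not, being lost without ELA input replicate 1 or ES input replicate 2. Without ELA input replicate 1, 11 carriers were higher and 17 lower in total RNA.

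**Figure D3:**
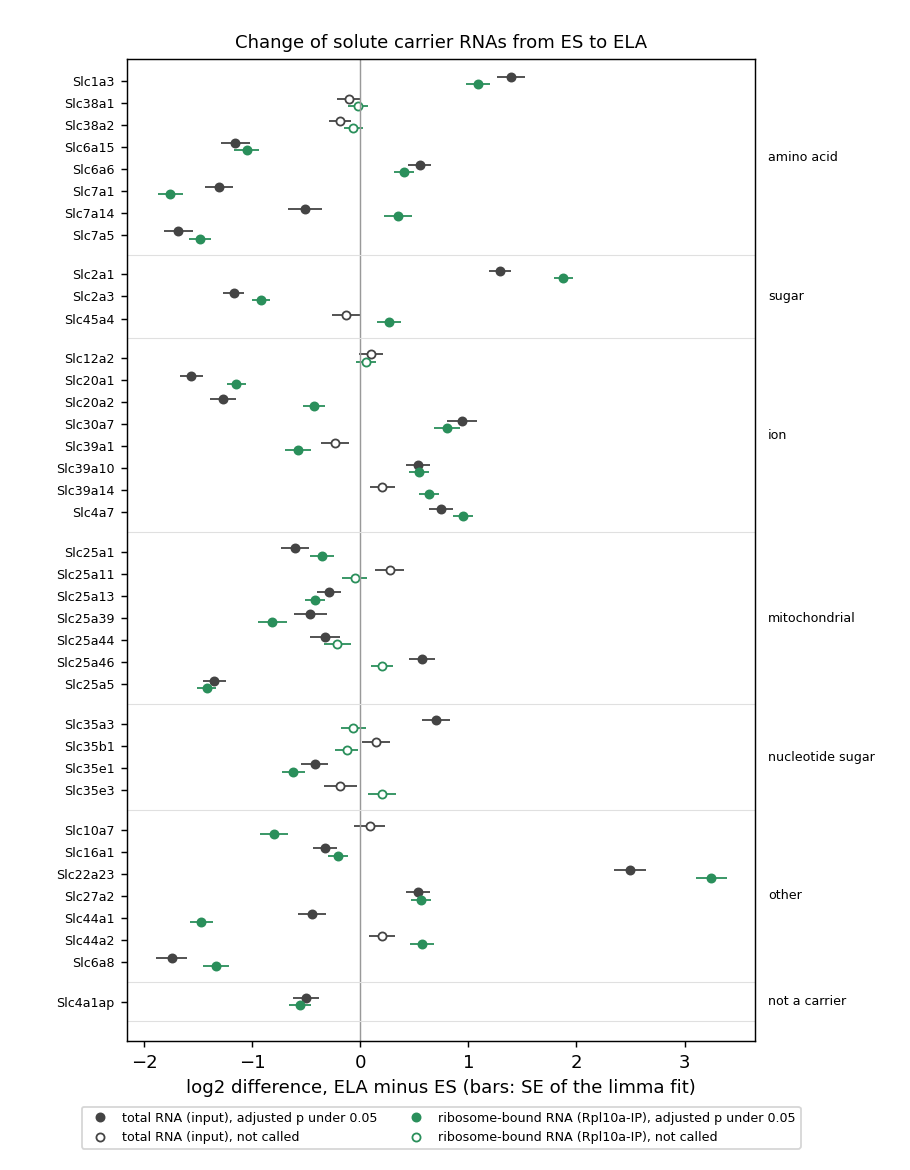
Log2 difference between ELA and ES (horizontal axis) in total RNA (grey) and ribosome-bound RNA (green) for each solute carrier gene (vertical axis, by class). Bars are SEs of the limma fit and filled points are genes with an adjusted p under 0.05. Slc22a23 lies furthest to the right on both measures.

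Ribosome-bound RNA was compared between the stages in the deep Rpl10a-IP libraries, which do not depend on the ELA input. Limma called 12 carriers higher and 17 lower in ELA, 29 of 38, where it called 83.4% of all genes, 41.1% higher and 42.3% lower. Of the 29, 25 held without each library. Of the 31 carriers that reached the input minimum in both stages, 10 were higher and 13 lower. The median was −0.10 over the carriers and −0.02 over all genes.

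Slc22a23 had 53.5 and 48.4 in ES Rpl10a-IP and 529 and 456 in ELA Rpl10a-IP, a difference of 3.25 (SE 0.14), or 9.49-fold, in a gene that entered the table through ELA input alone. Slc2a1 rose by 1.88 (SE 0.09, adjusted p 2.1e-97), from 2583 and 2506 to 8750.5 and 9994. The groups did not overlap in either gene. Further rises were of Slc1a3 (1.09), Slc4a7 (0.95), Slc30a7 (0.80), Slc39a14 (0.64), Slc44a2 (0.57), Slc27a2 (0.56), Slc39a10 (0.54) and Slc6a6 (0.41). Those of Slc30a7 and Slc6a6 turned to −0.20 and −0.23 with the length and GC correction. Slc45a4 was called at 0.27, which turned to −0.61 with that correction and was lost without ES Rpl10a-IP replicate 1, ES Rpl10a-IP replicate 2 or ELA Rpl10a-IP replicate 1.

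Slc7a1, which entered through ES input alone, went from 485 and 472 to 142 and 139, a difference of −1.76 (SE 0.11), and Slc7a5 from 829 and 808 to 323 and 265, a difference of −1.48 (SE 0.10, adjusted p 5.0e-46). Slc44a1 fell by 1.47 (SE 0.11), Slc25a5 by 1.42, Slc6a8 by 1.34, Slc20a1 by 1.15, Slc6a15 by 1.05, Slc2a3 by 0.92, Slc25a39 by 0.82 and Slc10a7 by 0.80. The call of Slc25a39 was lost with the length and GC correction.

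By class, 3 amino acid carriers rose and 3 fell of 8 (median −0.045, and 0.16 among those with at least 10 reads in both ELA input libraries). After the length and GC correction 1 rose and 7 fell (median −0.77). Of the sugar carriers 2 rose and 1 fell (median 0.27), and of 8 ion carriers 4 rose and 3 fell (median 0.30). Without Slc30a7, which reached the input minimum in ELA only, 3 rose and 3 fell of 7 (median 0.049). Without ELA Rpl10a-IP replicate 1 the sugar median was 0.0999. The sugar and ion medians turned to −0.61 and −0.22 with the length and GC correction. No mitochondrial carrier was called higher, and 4 of 7 were lower (median −0.36). Of these 4, Slc25a1 (−0.36) turned to 0.26 with the length and GC correction. Slc25a11 was not called at −0.05 and stood at 0.59 with that correction. Both were then called higher, and of the 7 mitochondrial carriers 2 were higher and 3 lower (median −0.21).

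Setting the total and ribosome-bound RNA side by side, 8 carriers were called higher in both (21.1%, against 24.8% of all genes) and 15 lower in both (39.5%, against 26.2%). Slc7a14 was called lower in total and higher in ribosome-bound RNA, as were 4.49% of all genes. Its ribosome-bound call was lost without ES or ELA Rpl10a-IP replicate 1 and turned to −0.67 with the length and GC correction. The comparisons of total and of ribosome-bound RNA use different libraries.

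The last comparison asks whether the ratio of ribosome-bound to total RNA changed from ES to ELA. Limma called 10 carriers, 6 higher and 4 lower, or 26.3% of the 38, where it called 56.2% of all genes, 28.4% higher and 27.7% lower. Only Slc44a1 changed by more than 2-fold (2.63% of the carriers, against 15.4% of all genes). The median absolute change was 0.29 over the carriers and 0.47 over all genes. The median SE was 0.18 over the carriers and 0.17 over all genes, and carriers had fewer reads in ELA input (a median of 15.5 against 26 in replicate 1). The part of read depth in the lower share of calls was not tested. Libraries scaled by total reads gave 4 higher and 6 lower. The count was 15 without ELA input replicate 1, and 7 without ES input replicate 2, ES Rpl10a-IP replicate 2 or ELA Rpl10a-IP replicate 1.

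Beside Slc7a14, the ratio rose in Slc20a2 (0.85, SE 0.17, adjusted p 7.6e-05), Slc22a23 (0.75, SE 0.21, adjusted p 0.0034) and Slc2a1 (0.58, SE 0.14, adjusted p 0.00094). Slc20a2 overlapped in ES, at 689 and 713 in input and 709.7 and 694 in Rpl10a-IP, and was apart in ELA, at 272 and 307 in input and 536 and 507 in Rpl10a-IP. With the length and GC correction Slc22a23 lost its call, at 0.32 (adjusted p 0.18). Slc39a14 (0.43) and Slc20a1 (0.42) were called as well, but each lost its call without ES input replicate 2, ES Rpl10a-IP replicate 2 or ELA Rpl10a-IP replicate 1, among others, and under scaling by total reads.

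The ratio fell in Slc44a1 (−1.03, SE 0.18, adjusted p 1.6e-05), Slc10a7 (−0.89, SE 0.20, adjusted p 0.00042) and Slc35a3 (−0.76, SE 0.19, adjusted p 0.00081). Slc35a3 had 252 and 273 in ES input and 233 and 233 in ES Rpl10a-IP, then 408 and 445 in ELA input with 232 and 214 in ELA Rpl10a-IP. Its total RNA rose while its ribosome-bound RNA was not called. The fall of Slc7a1 (−0.45, adjusted p 0.039) was lost without any single library other than ELA input replicate 1.

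By class, 3 of 8 ion carriers rose and none fell (median 0.11), 1 of 3 sugar carriers rose (median 0.40), and 1 amino acid carrier rose and 1 fell of 8 (median 0.095). With the length and GC correction the sugar median was 0.094 and the amino acid median turned to −0.13. Leaving out 1 library moved the ion median between 0.041 (without ES input replicate 2) and 0.18 (without ES input replicate 1), the sugar median down to 0.23 (without ELA Rpl10a-IP replicate 1) and the amino acid median down to 0.014 (without ELA input replicate 1). The median over all genes was 0.01. Limma called 0 of 7 mitochondrial carriers, with values from −0.37 to 0.25 and 1 of them, Slc25a46, at an unadjusted p under 0.05. With the length and GC correction Slc25a5 turned from −0.07 to 0.45 and was called (adjusted p 0.0053).

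**Figure D4:**
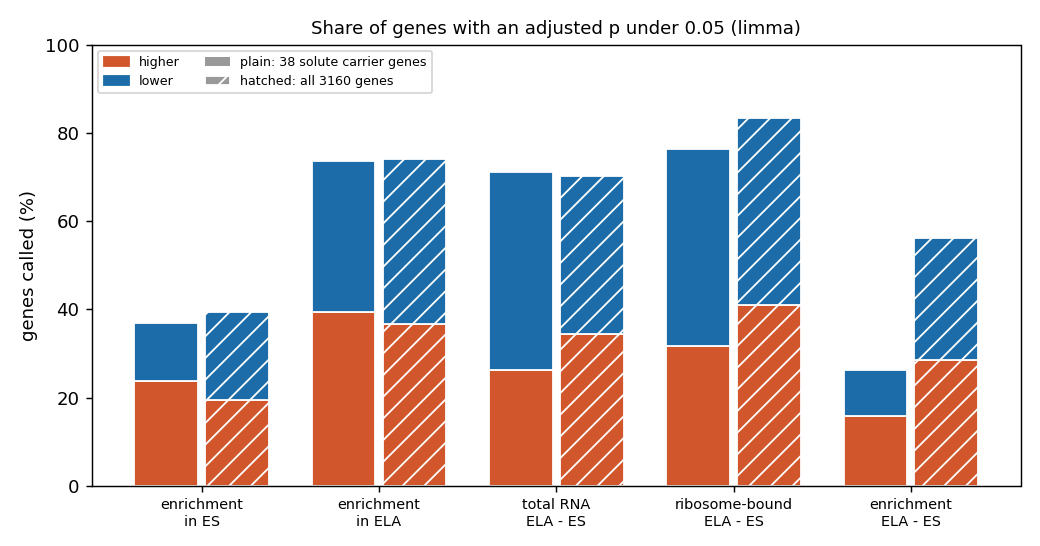
Share of genes called by limma at an adjusted p under 0.05 (vertical axis, percent, from 0) in each of the 5 comparisons (horizontal axis), higher in orange and lower in blue. Plain bars are the 38 solute carrier genes and hatched bars all 3160 genes. In the last comparison the shares called in either direction are 26.3% of carriers and 56.2% of all genes.

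Other genes of nutrient supply were read from lists written for this purpose. The amino acid response is the program by which the kinase Gcn2 and the factor Atf4 raise amino acid synthesis and uptake when amino acids are scarce. Of its 9 genes in the table, 7 fell and 2 rose in ELA total RNA (median −0.50), where 35.8% of all genes fell and 34.5% rose. Cth, of cysteine synthesis, fell by 2.13, Psat1, of serine synthesis, by 1.61 and Asns, asparagine synthetase, by 1.61, while Ddit4, an inhibitor of mTORC1, rose by 1.61. In the ratio of ribosome-bound to total RNA, 4 of the 9 rose and 2 fell, where 28.4% of all genes rose and 27.7% fell. Among those with at least 10 reads in both ELA input libraries only 3 were called.

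Of 12 genes of mTORC1 and lysosomal nutrient sensing, 4 rose and 2 fell in total RNA, and 6 rose and 3 fell in the ratio of ribosome-bound to total RNA. These counts stand beside the same shares of all genes, 70.2% called in total RNA and 56.2% in the ratio. In total RNA, 11 were called with the length and GC correction (5 higher and 6 lower), 4 without ES input replicate 2 and 9 without ELA input replicate 2. Largest in the ratio were Depdc5 (1.61) and Rheb (−1.35), then Mtor (1.13) and Lamtor1 (−0.75). ATP-driven transporters, the ABC proteins and P-type ATPases, had 12 genes in the table. In total RNA 4 rose and 6 fell, and in the ratio 7 rose and 1 fell (median 0.41, against 0.06 over the 38 solute carrier genes and 0.01 over all genes, of which 28.4% rose and 27.7% fell). With the length and GC correction 5 fell and none rose in total RNA, and 4 rose and 1 fell in the ratio. Among those called in the ratio were Atp1b1 (−1.25), a subunit of the sodium pump, and the phospholipid flippases Atp11b (0.66) and Atp8b2 (0.65). No mitochondrial carrier under another name was in the table.

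The carrier transcripts were close in length to the rest, with a median of 3962 bases against 3698 over 2979 genes with a GENCODE coding transcript that marks its coding part. Their 3′ UTRs had a median of 2288 bases against 1421, and 25 of 38 (65.8%) had an ATG upstream of the coding part against 50.8% of all. Over the 38 genes, the change in the ratio correlated with log2 transcript length at Pearson's r = 0.13 (Spearman's rho 0.09), against 0.48 (0.44) over 3120 genes. For the change in ribosome-bound RNA, r was 0.28 (rho 0.33) over the carriers and 0.58 (rho 0.61) over all. These are descriptions across genes of the same libraries.

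RefSeq promoters (GRCm38.p6, 250 bases before to 50 after the start) were found for 26 of the 38 genes, and 6 motifs were searched in them on both strands. A gene was counted if any of its promoters held the motif, while the shares are of single promoters over all RefSeq genes. Shares over the genes of the table were not computed, so the counts and shares below are not alike. The amino acid response element TGATGNAA, held by 3.97% of all 32851 promoters, was in none of the 26, nor was its stricter form TGATGCAA (0.895%). The hypoxia response core ACGTG, held by 19.6% of all promoters, was in 12 of the 26. The same 12 held its flanked form NACGTGNN (19.5% of all). CCAAT was in 11 (37.4% of all), and the E-box CACGTG, which contains ACGTG, in 6 (7.15% of all). The E-box genes are shown because 5 of the 6 were called lower in ELA total RNA, against 6 of the 20 carriers without it. This grouping was chosen after the values were seen, and nothing is drawn from it. In Slc7a14 and Slc25a13 the start used lay inside the span of the gene, as did the E-box. The E-box is in capitals, and each sequence reads 5′ to 3′ on the strand of the gene.
Slc7a14, chr3:31310373-31310398, minus strand: ctgggttagcCACGTGattacaagga
Slc16a1, chr3:104638454-104638479, plus strand: ggcgccgggtCACGTGgcgggaaggg
Slc20a1, chr2:129198588-129198613, plus strand: cagccagtccCACGTGgaccagctcc
Slc25a1, chr16:17928443-17928468, minus strand: gctccagacgCACGTGtctctaaact
Slc25a13, chr6:6217283-6217308, minus strand: cagtctgagtCACGTGtcctggcccc
Slc35e3, chr10:117746423-117746448, minus strand: gcggcggaatCACGTGgctgcgcggg
Of these genes, Slc35e3 was the one not called in total RNA (−0.19).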

How the data were processed

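RNA of 8 libraries in 4 groups of 2 was compared over 3160 genes. The authors mapped reads to mm10 with TopHat2, counted them per gene with HTSeq and divided by DESeq2 size factors. Versions are not given in the sources used here, nor is the strand used in counting. The deposited signal in each library column is such a normalised count. Every value was a whole multiple of 1 read (tolerance 0.01 read), and the reads read back served only for depth and for the scale. A stricter check, on the low values alone, found the step of 1 read in ELA input replicate 1 and not in the other libraries, so read numbers rest on the step fitted over all genes of a library. The authors kept genes with a mean of 50 in either stage and, per the methods, limited the SD relative to the mean. In the file the larger mean input count was at least 50.02 and the SD of the replicate ratios at most 0.20 of their mean in both stages. This keeps genes whose replicates lie close, so SEs and adjusted p-values come out too small. The table holds 26 other columns, among them the authors' ratios and fold changes, which were not used.

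Trimmed-mean-of-M-values (TMM) factors from the reads put the libraries on 1 scale. Limma 3.58.1 (R 4.3.3; lmFit, eBayes with a trended prior) was fitted to log2(normalised count + 1), with 1 coefficient per group and Benjamini-Hochberg adjustment over all genes. The groups share 1 spread per gene. Library weights, not used in the main fit, were 0.39 for each ELA input library and 1.08 to 2.08 for the others. SEs and p-values that rest on the shallow ELA input are therefore too small, and for genes with few reads SEs can lie below counting error. ELA input replicate 1 was left out of 2 comparisons, ribosome-bound RNA and enrichment in ES, which leaves 7 libraries, and the others used all 8. Adjusted p-values depend strongly on that choice, as for Slc7a14 in ES. Those of the 7-library and 8-library fits are not comparable. The log2 scale with a pseudocount of 1 understates changes of low genes. The script was tested on simulated data. Intervals cover counting error only.

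Members were the genes whose symbol fits the naming pattern, and classes follow family numbers. Named were Slc7a14 in each comparison, the 10 largest called rises and falls in each, and all amino acid, sugar and mitochondrial carriers. From other lists at most 4 genes were named. A value that this rule would name is not reported here. Members and lists were chosen with earlier results of these data known. Lengths are of the longest coding transcript of a gene in GENCODE vM1, made on the older NCBIM37 build, and coordinates and promoters come from RefSeq GRCm38.p6.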

Additional observations from a re-analysis of the deposited data

Results flagged for a closer look

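The ratio of ribosome-bound to total RNA differed between ELA and ES in 10 solute carrier genes by limma's test of the difference itself. The log2 difference, ELA minus ES, was 0.86 in Slc7a14, 0.85 in Slc20a2, 0.75 in Slc22a23, 0.58 in Slc2a1, 0.43 in Slc39a14 and 0.42 in Slc20a1. It was −1.03 in Slc44a1, −0.89 in Slc10a7, −0.76 in Slc35a3 and −0.45 in Slc7a1. Calls of 7 of these genes held when any 1 library was left out, and those of Slc39a14, Slc20a1 and Slc7a1 did not. Of the 7, Slc7a14 and Slc22a23 lost their calls with the length and GC correction alone, and 5 held under every setting.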

How the results depend on the processing

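For enrichment in ES the count of called carriers was 8 with all 8 libraries against 14, and 7 to 16 when 1 library was left out: 7 without ES Rpl10a-IP replicate 1 or 2 and 9 without ES input replicate 1. For enrichment in ELA they ran from 18 (without ELA Rpl10a-IP replicate 1) to 29, for total RNA from 25 to 28, for ribosome-bound RNA from 26 to 30 and for the change in the ratio from 7 to 15. The last was 7 without ES input replicate 2, ES Rpl10a-IP replicate 2 or ELA Rpl10a-IP replicate 1, and 15 without ELA input replicate 1. Leaving out 1 library changed the sign of no carrier that was called with or without it. Pseudocounts of 0.1 and 10 changed no call of a carrier. The share of all genes called under each alternative setting is not given, above or below. The counts of carriers under these settings can therefore not be compared with the rest of the table. The shallow ELA input limits what 3 of the 5 comparisons can show.

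Leaving out 1 library, class medians for enrichment in ES lay between −0.11 and −0.077 (amino acid), −0.072 and 0.029 (sugar, above 0 without ES input replicate 1 or ES Rpl10a-IP replicate 2), −0.013 and 0.037 (mitochondrial, below 0 without ES Rpl10a-IP replicate 2) and −0.0065 and 0.085 (ion, reversed at −0.0065 without ES input replicate 1 and −0.0038 without ES Rpl10a-IP replicate 2). For enrichment in ELA they lay between −0.15 and −0.061 (amino acid), 0.53 and 0.59 (sugar) and 0.31 and 0.40 (ion), and for ribosome-bound RNA between 0.27 and 0.31 (ion). Further medians that moved by over 1.5 times were the mitochondrial one in ELA (−0.031 without ELA Rpl10a-IP replicate 1, −0.18 without replicate 2), those of total RNA for sugar (−0.063 without ES input replicate 1, −0.20 without replicate 2) and ion (0.089 without ES input replicate 1), and for ribosome-bound RNA that of amino acid carriers (−0.083 without ES Rpl10a-IP replicate 1, −0.0076 without replicate 2). The mitochondrial median of the change in the ratio ran from −0.21 without ELA Rpl10a-IP replicate 1 to −0.082 without ES input replicate 2.

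The length and GC correction moved many values, though not each of them by more than the other settings did. The same values held with and without the replicate block. In ES the medians became −0.088 (amino acid), 0.14 (sugar, from −0.022), −0.00011 (ion, reversed) and 0.13 (mitochondrial), and in ELA −0.49, 0.47, 0.15 and 0.082, the last from −0.089. For total RNA they became −0.85 (amino acid) and −0.55 (sugar), for ribosome-bound RNA −0.77 (amino acid), −0.61 (sugar, reversed), −0.22 (ion, reversed) and −0.21 (mitochondrial), and for the change in the ratio −0.13 (amino acid, reversed) and 0.094 (sugar). Enrichment in ELA reversed in Slc25a11 (0.082), Slc35b1 (0.044) and Slc45a4 (−0.055). Ribosome-bound RNA reversed in Slc6a6 (−0.23), Slc7a14 (−0.67), Slc12a2 (−0.49), Slc30a7 (−0.20), Slc25a1 (0.26), Slc25a11 (0.59), Slc35b1 (0.68) and Slc45a4 (−0.61). The change in the ratio reversed in Slc25a5 (0.45) and, with the block, Slc38a1 (−0.32). It called 5 ABC and P-type ATPase genes in total RNA and 5 in the ratio, and 11 mTORC1 genes in total RNA. The cause was not tested.

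With total reads as the scaling, medians were −0.12 (amino acid) and 0.020 (ion) in ES, −0.20, 0.45, 0.24 and −0.20 (amino acid, sugar, ion, mitochondrial) in ELA, 0.27 (ion) for ribosome-bound RNA and 0.0030 (amino acid) for the change in the ratio; it moved the median of all genes by −0.11 in ELA. With the deposited size factors, ribosome-bound medians were −0.16 (amino acid) and 0.19 (ion). Those factors were set within each fraction and offset Rpl10a-IP from input by 4.07 in ES and 4.06 in ELA over all genes, calling all 38 carriers higher, so they were not used for enrichment. With at least 10 reads in both ELA input libraries, 31 carriers were left, and medians were −0.090 (amino acid) and 0.21 (mitochondrial) in ES, −0.15 (amino acid) for total RNA and 0.16 (amino acid) for ribosome-bound RNA. It left 3 amino acid response genes called in the ratio.

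Replicate numbers are shared by all groups in the titles, while the source labels give both input libraries of a stage the number 1. As a block they gave 15, 28, 27, 30 and 12 called carriers in the order of the report. Deviations of same-numbered libraries correlated over genes at 0.17 (ES input and Rpl10a-IP), 0.50 (ELA), 0.15 (inputs) and −0.02 (Rpl10a-IP). Library weights and the length and GC correction without the block were chosen after seeing the data. The weights gave 15, 20, 25, 30 and 10. The count models edgeR and DESeq2 were planned but not run, because the check on low values found the step of 1 read in only 1 of the 8 libraries.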
